A study of Mus musculus with 6 samples.

Results

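The transforming growth factor beta (TGF-beta) system was examined through the transcripts of 10 genes in bone cells of mice given a glucocorticoid. The genes were chosen by symbol: the ligands Tgfb1, Tgfb2 and Tgfb3, the receptors Tgfbr1, Tgfbr2 and Tgfbr3, the latency proteins Ltbp1, Ltbp2 and Ltbp3, and the induced matrix gene Tgfbi. All 10 were found among the 29616 gene identifiers of the table, each under 1 identifier, and all 10 passed the filter on low values. RNA sequencing compared 3 control libraries with 3 libraries from C57BL/6 mice treated with dexamethasone, a synthetic glucocorticoid that is used to model bone loss under long-term glucocorticoid therapy. The strain is spelled as in the labels, and the methods name C57BL/6J. According to the methods, treatment began at 8 weeks of age and lasted 4 weeks at a daily dose of 0.08 µg/g, and littermates served as controls. The labels call the material bone cells, whereas the study describes a sort for Osteocalcin after the marrow had been removed. Each group is labelled as 3 biological replicates, and it is not stated if a library holds RNA of 1 mouse or of a pool. The depth was between 72596611 and 89910728 reads per library.

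The label was checked against Bglap, which encodes Osteocalcin. Bglap had 98.2, 102 and 122 normalized counts across the controls and 9.54, 11.99 and 15.1 across the dexamethasone libraries, and values given in this way are in the order of replicates 1, 2 and 3. Normalized counts are read counts divided by 1 size factor per library. Transcripts of Bglap were thus few in all 6 libraries, and its reads may be shared with its near-identical copies. Bglap2, such a copy that was named after its value was seen, had means of 324 in the controls and 31.3 with dexamethasone. Its log2 fold change was -3.33 (limma adjusted p = 1.8e-16). Of 13 osteoblast markers, 10 were differentially expressed downward with dexamethasone and 1, the matrix protein gene Spp1, upward (limma, past both cut-offs given with the members), against 10.6% and 11.7% of all tested genes. In bulk libraries, fewer cells of a type and less RNA per cell cannot be told apart.

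TGF-beta ligands are secreted in a latent form, in which the propeptide stays bound around the mature ligand. Latent TGF-beta binding proteins tether this complex to the extracellular matrix, and integrins, proteases or other factors release the ligand, which assembles type I and type II receptor kinases and signals through Smad2 and Smad3. Bone matrix is a large store of latent TGF-beta, which takes part in the coupling of bone resorption to bone formation and in the control of osteoblast differentiation.

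The comparison asked which of these transcripts differed after dexamethasone. Most of the 10 genes changed, and the ligands and the receptors each went in opposite directions among themselves. Tgfb1, Tgfbr3, Ltbp2 and Ltbp3 rose, while Tgfb2, Tgfb3 and Tgfbr2 fell, each by at least 1 on the log2 scale. In all, 7 of 10 members were differentially expressed, meaning that limma gave an adjusted p-value under 0.05 and the log2 fold change reached 1 in size, against 22.3% of the 17442 genes tested. Higher expression was called for 4 members, against 11.7% of tested genes, and lower expression for 3, against 10.6%. The members, and the gene lists below, were chosen with earlier results of these data known. A share above that of all tested genes is therefore a description and no support. At the adjusted p-value alone 9 of 10 passed, 6 of them higher (37.2% of tested genes) and 3 lower (35.2%), where 72.5% of tested genes passed in either direction. The groups did not overlap for 9 members, as for 74.7% of tested genes. Of the genes whose mean over all 6 libraries reached 100 normalized counts, 18.1% were differentially expressed, and Ltbp2 is among these genes only through its dexamethasone libraries. The median log2 fold change of the members was 0.79, against 0.000712 over all genes tested. Fold changes on the log2 scale are those of the normalized count plus 1.

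**Figure D1:**
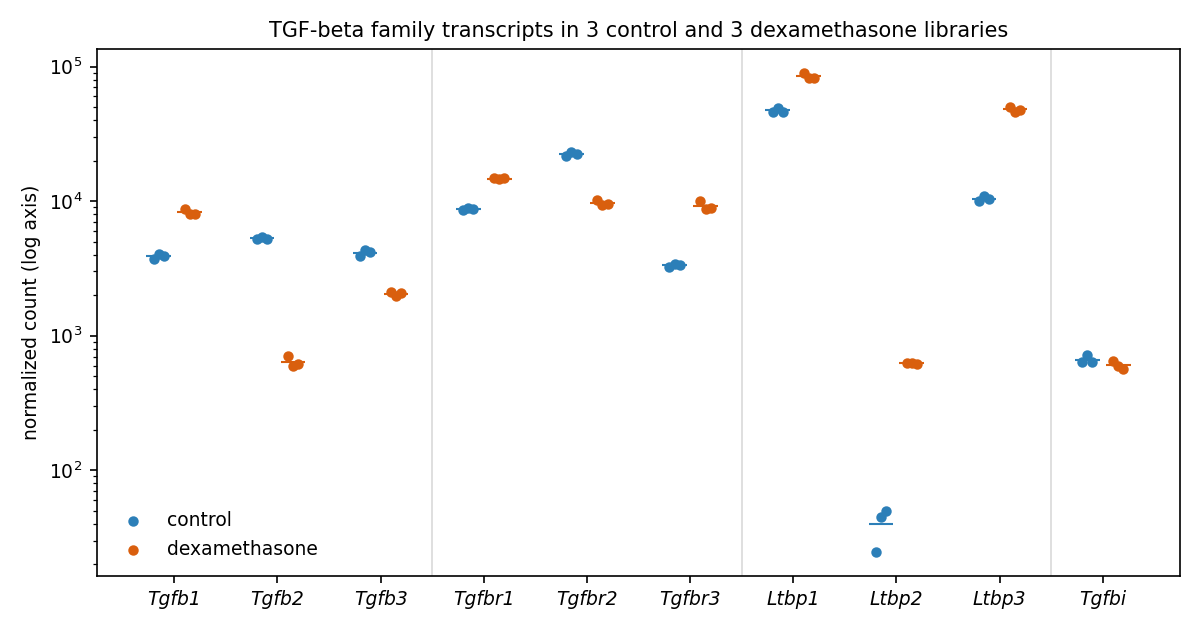
Normalized counts of the 10 members in each library on a log axis, with control libraries in blue, dexamethasone libraries in orange and the group mean as a line. Only for Tgfbi do the points of the groups overlap, and the widest separation is that of Ltbp2.

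Among the ligands, the transcript of Tgfb1 increased and those of the other 2 decreased. Tgfb1 (ENSMUSG00000002603) encodes the ligand that is most abundant in bone matrix. It had 3737, 4017 and 3879 normalized counts across the controls and 8709, 7975 and 8017 across the dexamethasone libraries. Every dexamethasone library lay well above every control library. The mean went from 3877 ± 140.1 to 8234 ± 412 (SD, n = 3 per group), 2.12-fold higher, at a log2 fold change of 1.09 with a standard error of 0.0406 and a limma adjusted p of 8.22e-18. This change lies near the cut-off and was 0.97 with libraries scaled to the same total and 0.90 after quantile normalization, both short of it.

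Tgfb2 (ENSMUSG00000039239), a ligand that depends on a co-receptor for high-affinity binding, showed the largest decrease among the members. It had 5209, 5385 and 5251 normalized counts across the controls and 711, 597 and 615 across the dexamethasone libraries. All dexamethasone libraries were far below the controls, and the libraries of each group lay close together. The mean fell from 5282 ± 91.6 to 641 ± 60.9 (SD, n = 3 per group), 8.24-fold lower, at a log2 fold change of -3.05 with a standard error of 0.0541 and a limma adjusted p of 1.81e-24. This log2 fold change was at percentile 0.763 of all tested genes, counted from the largest decrease. Tgfb3 (ENSMUSG00000021253), the remaining ligand of the subfamily, had 3925, 4297 and 4152 normalized counts in the control libraries and 2117, 1974 and 2060.4 in the dexamethasone libraries, in replicate order. These groups were also separate. Its mean fell from 4124 ± 187 to 2050.4 ± 71.9 (SD, n = 3 per group), 2.01-fold lower, and the change was -1.01 on the log2 scale with a standard error of 0.0434 and a limma adjusted p of 1.56e-16. Tgfb3 sits at the fold cut-off, since its log2 fold change was -0.98 without control replicate 2 and -0.98 without dexamethasone replicate 2, which ended the call. Over all alternatives the highest adjusted p-value of Tgfb3, whether from limma, edgeR or DESeq2, was 2.94e-05.

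The exchange between ligands can be read within each library, where the size factor cancels. The ratio of Tgfb1 to Tgfb2 normalized counts was 0.717, 0.746 and 0.739 across the controls and 12.3, 13.4 and 13.0 across the dexamethasone libraries. Thus Tgfb2 had more reads than Tgfb1 in each control library and fewer in each dexamethasone library. Against Tgfb3, the ratio of Tgfb1 was 0.940 ± 0.0101 in the controls and 4.02 ± 0.114 (SD, n = 3 per group) with dexamethasone. To compare levels between genes, normalized counts were divided by the length of the longest transcript in kilobases. On this scale Tgfb1 made up 40.1% ± 0.0991 of the ligand transcripts in the controls and 81.4% ± 0.310 (SD, n = 3 per group) with dexamethasone. The share of Tgfb2 went from 27.5% ± 0.4997 to 3.18% ± 0.146 (SD, n = 3 per group), and that of Tgfb3 from 32.4% ± 0.412 to 15.4% ± 0.385 (SD, n = 3 per group). These shares depend on the length used. With the union of all exons as length, Tgfb1 held 26.5% in the controls and 69.5% with dexamethasone, and Tgfb3 held 42.0% and 25.8%, so that Tgfb3 rather than Tgfb1 led in the controls. Every direction was the same with both lengths. The sum of the ligands per kilobase of longest transcript was 3759 ± 127 in the controls and 3931 ± 190.1 (SD, n = 3 per group) with dexamethasone, with overlapping libraries. With the union of exons the sum was 2900.3 ± 98.0 and 2349.8 ± 111 (SD, n = 3 per group), without overlap, so the direction of the total depends on the length.

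**Figure D2:**
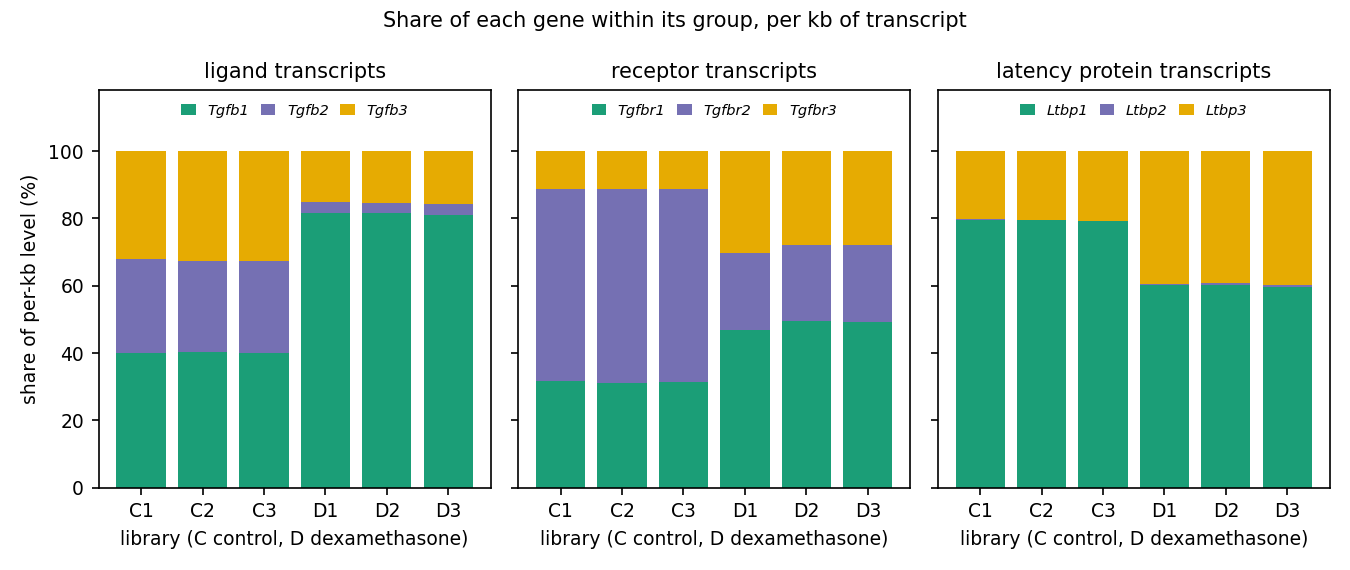
Share of each gene in the per-kilobase level (longest transcript) of the ligands, the receptors and the latency proteins among the members, in percent, with 1 bar for each control (C1 to C3) and dexamethasone (D1 to D3) library. Tgfb1 takes 40.1% of the ligand bars in the controls on average and 81.4% with dexamethasone.

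At the receptors, the type II receptor fell while the type I receptor and the co-receptor rose. Tgfbr2 (ENSMUSG00000032440) encodes the type II receptor kinase, which binds the ligand and phosphorylates the type I receptor. Its normalized counts were 21767, 23282 and 22574 across the controls and 10157, 9388 and 9529 across the dexamethasone libraries. The highest dexamethasone library stayed well under the lowest control library. The mean fell from 22541 ± 758 to 9692 ± 409 (SD, n = 3 per group), 2.33-fold lower, at a log2 fold change of -1.22 with a standard error of 0.0379 and a limma adjusted p of 1.82e-19. Tgfbr1 (ENSMUSG00000007613), the type I receptor kinase that phosphorylates Smad2 and Smad3, had 8603, 8928 and 8775 normalized counts in the controls and 14833, 14589 and 14744 with dexamethasone. The replicates of this gene were tight and the groups apart. Its mean rose from 8769 ± 162 to 14722 ± 124 (SD, n = 3 per group), and its log2 fold change, 0.75 with a standard error of 0.0338 and a limma adjusted p of 4.36e-16, was under the cut-off of 1. Tgfbr3 (ENSMUSG00000029287) encodes betaglycan, a membrane proteoglycan that presents ligand, above all TGF-beta2, to the signaling receptors. It had 3219, 3417 and 3375 normalized counts in the controls and 10096, 8725 and 8858 with dexamethasone, with dexamethasone replicate 1 the highest. The mean rose from 3337 ± 105 to 9226 ± 756 (SD, n = 3 per group), at a log2 fold change of 1.46 with a standard error of 0.0458 and a limma adjusted p of 1.97e-19.

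Within each library the order of the kinases was reversed. Normalized counts of Tgfbr2 over those of Tgfbr1 were 2.53, 2.61 and 2.57 across the controls and 0.685, 0.644 and 0.646 across the dexamethasone libraries. Per kilobase of longest transcript, Tgfbr2 made up 57.3% ± 0.299 of the receptor transcripts in the controls and 22.7% ± 0.125 (SD, n = 3 per group) with dexamethasone. Tgfbr1 went from 31.4% ± 0.316 to 48.6% ± 1.41 (SD, n = 3 per group) and Tgfbr3 from 11.3% ± 0.0907 to 28.7% ± 1.28 (SD, n = 3 per group). With the union of exons the shares of Tgfbr2 were 59.8% and 24.4%, and its place as the first of the receptors in the controls and the last with dexamethasone was the same. The sum of the receptors per kilobase of longest transcript was 4857 ± 138 in the controls and 5271 ± 193 (SD, n = 3 per group) with dexamethasone. Taken over the union of exons, it was 4605 ± 133 and 4847 ± 182 (SD, n = 3 per group), and libraries of the groups overlapped.

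All 3 latency proteins among the members rose, and Ltbp3 and Ltbp2 did so by more than the cut-off. Ltbp4, which is not a member and was named after its value was seen, went the other way. Its log2 fold change was -0.32 (limma adjusted p = 7.5e-08), under the cut-off. Ltbp3 (ENSMUSG00000024940) binds latent TGF-beta covalently and is required for normal skeletal growth. It had 10089.5, 10907 and 10369 normalized counts across the controls and 50405, 46216 and 47412 across the dexamethasone libraries. The lowest dexamethasone library was several times the highest control library. Its mean rose from 10455 ± 416 to 48011 ± 2158 (SD, n = 3 per group), 4.59-fold higher, at a log2 fold change of 2.20 with a standard error of 0.0394 and a limma adjusted p of 2.1e-24. That change exceeded those of 96.2% of the tested genes. Ltbp1 (ENSMUSG00000001870), the founding member of the family and also a covalent partner of latent TGF-beta, had 46157, 49605 and 46322 normalized counts in the controls and 89323, 82506 and 82925 with dexamethasone. Here too no libraries of the groups overlapped. The mean rose from 47362 ± 1945 to 84918 ± 3820.5 (SD, n = 3 per group), and the log2 fold change, 0.84 with a standard error of 0.0429 and a limma adjusted p of 5.04e-15, was under the cut-off.

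Ltbp2 (ENSMUSG00000002020) is a microfibril protein that, unlike its relatives, does not bind latent TGF-beta. It was the least expressed member in the controls and showed the largest increase of the members. Its normalized counts were 24.8, 45.0 and 50.1 in control replicates 1, 2 and 3, from 27, 46 and 57 reads. They were 629, 630.0 and 619.8 in dexamethasone replicates 1, 2 and 3, from 659, 578 and 533 reads. Control replicate 1 was the lowest of its group, whereas the dexamethasone libraries were nearly equal. The mean rose from 39.96 ± 13.4 to 626 ± 5.57 (SD, n = 3 per group), 15.7-fold higher, at a log2 fold change of 3.997 with a standard error of 0.172 and a limma adjusted p of 1.49e-16. This change exceeded those of 99.1% of the tested genes and ranged from 3.69 to 4.19 across the fits that omit 1 library. In the GENCODE M21 annotation a gene on the opposite strand overlaps 9.34% of the exon bases of Ltbp2, and that gene had at most 5.45 normalized counts. For Tgfb3 the overlap with genes on the opposite strand was 12.4% and for Tgfb2 2.14%, and 4.54% of Tgfbr3 is shared with a gene of its own strand. The strand setting of the authors' count is not given, so reads in these stretches cannot be told apart. This list of overlaps is not complete.

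Per kilobase of longest transcript, Ltbp1 made up 79.5% ± 0.216 of the transcripts of Ltbp1, Ltbp2 and Ltbp3 in the controls. With dexamethasone it made up 60.04% ± 0.245 (SD, n = 3 per group). Ltbp3 held 20.4% ± 0.197 and 39.5% ± 0.249 (SD, n = 3 per group), and Ltbp2 under 1% in both groups. Ltbp4, with means of 5134 and 4126 normalized counts, is not part of these shares or of the sums below. The ratio of Ltbp1 to Ltbp3 normalized counts was 4.53 ± 0.0558 in the controls and 1.77 ± 0.0183 (SD, n = 3 per group) with dexamethasone. The sum of the latency proteins per kilobase of longest transcript went from 8930.5 ± 362 to 21202 ± 944 (SD, n = 3 per group). With the union of exons it went from 5588 ± 227 to 13313 ± 592 (SD, n = 3 per group). The 10 members were also placed in order of their level per kilobase of longest transcript. In the controls the order was Ltbp1 (7100 ± 292, SD, n = 3), Tgfbr2 (2786), Ltbp3 (1825), Tgfbr1 (1523), Tgfb1 (1507), Tgfb3 (1219), Tgfb2 (1032), Tgfbr3 (548), Tgfbi (221) and Ltbp2 (5.90). Libraries of neighbours in this order overlapped only for Tgfbr1 and Tgfb1. With dexamethasone the order was Ltbp1 (12729 ± 573, SD, n = 3), Ltbp3 (8380.4), Tgfb1 (3200.04), Tgfbr1 (2558), Tgfbr3 (1516), Tgfbr2 (1198), Tgfb3 (606), Tgfbi (201), Tgfb2 (125) and Ltbp2 (92.5), with no overlap between neighbours. With the union of exons Ltbp1 was first and Ltbp2 last in both groups as well, but Tgfb1 had place 7 in the controls and place 4 with dexamethasone.

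Tgfbi (ENSMUSG00000035493) encodes a secreted matrix protein named for its induction by TGF-beta. It had 636, 715 and 641 normalized counts across the controls and 651, 597 and 562 across the dexamethasone libraries. Dexamethasone replicate 1 lay inside the range of the controls. The means were 664 ± 44.4 and 603 ± 44.8 (SD, n = 3 per group), and the log2 fold change of -0.14 (standard error 0.0711, 95% confidence interval -0.29 to 0.01) did not pass the test (limma adjusted p = 0.0832). Tgfbi passed at the adjusted p-value with libraries scaled to the same total (log2 fold change -0.25, limma adjusted p = 0.00203), after quantile normalization (-0.20, limma adjusted p = 0.00871), with edgeR (-0.16, adjusted p = 0.0296) and without dexamethasone replicate 1 (-0.19, limma adjusted p = 0.0212). Its log2 fold change lay between -0.25 and -0.08 across the alternatives, and the adjusted p-value between 0.00203 and 0.342.

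Sequence around the start was examined for the members in the RefSeq promoter table, which gives 250 bases before to 50 after each start on GRCm38.p6. Of the 10 symbols 8 matched, with 10 entries, and Tgfb3 and Tgfbr3 had none. The hexamer AGAACA, 1 arm of the glucocorticoid response element, was searched on both strands, the other strand reading TGTTCT, and was in 0 of the 10 entries, against 19% of 32851 promoters. The full element, AGAACA and then TGTTCT with 3 bases between them, was in 0 entries, against 0.00913% of promoters. No match says only that these letters are not in these windows. A pair of core promoter motifs was chosen for display after the values were seen. The GC box core GGGCGG, which reads CCGCCC on the other strand, was in 4 entries, those of Tgfb1, Tgfbr1, Ltbp2 and Tgfbi, against 35.7% of promoters. The TATA box core TATAAA, which reads TTTATA on the other strand, was in 1 entry, that of Tgfb2, against 13.6% of promoters. The promoters of Tgfb1 and Tgfb2 are shown because these ligands moved in opposite directions. That of Tgfb1 is chr7:25686752-25687051 on the plus strand, with 6 GC box cores, 30 CG dinucleotides and 77.0% G and C. That of Tgfb2 is chr1:186705940-186706239 on the minus strand, with TATAAA 31 bases before the start, 10 CG dinucleotides and 54.3% G and C. Over all promoters the medians were 7 CG dinucleotides and 52.7% G and C. Capitals mark the GC box cores in Tgfb1 and the TATA box core in Tgfb2, and a match is a description, not a site of binding.
Tgfb1: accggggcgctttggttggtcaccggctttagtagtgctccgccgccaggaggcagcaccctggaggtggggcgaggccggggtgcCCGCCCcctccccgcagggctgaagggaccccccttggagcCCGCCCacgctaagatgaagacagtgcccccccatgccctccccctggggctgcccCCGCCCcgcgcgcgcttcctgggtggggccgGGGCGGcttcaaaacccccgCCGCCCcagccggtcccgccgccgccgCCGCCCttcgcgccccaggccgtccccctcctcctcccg
Tgfb2: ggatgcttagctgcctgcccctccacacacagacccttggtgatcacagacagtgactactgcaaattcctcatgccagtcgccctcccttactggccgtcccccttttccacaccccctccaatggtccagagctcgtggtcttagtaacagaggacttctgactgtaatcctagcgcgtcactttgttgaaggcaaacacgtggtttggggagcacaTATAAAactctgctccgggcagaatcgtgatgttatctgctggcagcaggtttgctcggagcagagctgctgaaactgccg

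Genes that store or activate TGF-beta in the matrix mostly fell. Of 28 such genes 27 were tested, 5 were higher and 16 lower at the adjusted p-value (37.2% and 35.2% of all tested genes), with 4 and 20 at the same total, and 1 was differentially expressed upward and 11 downward (11.7% and 10.6% of all tested genes). Their median log2 fold change was -0.42, against 0.000712 over all genes tested. Fibrillin-2 (Fbn2), a microfibril protein to which latency proteins attach, fell from 18390 ± 715 to 2594 ± 121 (SD, n = 3 per group) normalized counts, at a log2 fold change of -2.83 and a limma adjusted p of 2.49e-26. Thrombospondin-1 (Thbs1), an activator of latent TGF-beta, fell from 168771 ± 8514 to 35446 ± 2209 (SD, n = 3 per group), at a log2 fold change of -2.25 and a limma adjusted p of 5.83e-23. The small proteoglycans that bind TGF-beta differed, with Dcn at -1.51 (limma adjusted p = 5.82e-20), Fmod at -1.24 (limma adjusted p = 7.61e-18) and Bgn at -0.05 (limma adjusted p = 0.331, not passed) on the log2 scale. Fibronectin (Fn1), with the highest mean of the list, had 973308 ± 36042 and 879480 ± 51320.05 (SD, n = 3 per group) normalized counts and did not pass (log2 fold change -0.15, limma adjusted p = 0.0744). At the same total, however, Fn1 (-0.26, limma adjusted p = 3.48e-05) and Bgn (-0.17, limma adjusted p = 6.06e-05) both passed, as they did with edgeR, so their result depends on the method. The differentially expressed increase was that of integrin beta3 (Itgb3), a subunit of an activating integrin, from 2394 ± 114 to 8618 ± 460 (SD, n = 3 per group), at a log2 fold change of 1.85 and a limma adjusted p of 5.07e-22. Other integrin subunits and proteases were named after their values were seen. On the log2 scale Itgav, the alpha partner of Itgb3, was at 0.05 (limma adjusted p = 0.236, not passed), while Itgb5 fell by 0.74, Itgb8 by 1.08, Mmp2 by 1.02 and Mmp14 by 1.24, and Plat rose by 0.52, Bmp1 by 0.36, Furin by 0.34 and Itgb1 by 0.11, all past the test. Plau (-1.16), Mmp9 (-1.16), Htra3 (-1.07) and Htra1 (-0.42) also fell past the test, and Itgb6 did not pass.

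**Figure D3:**
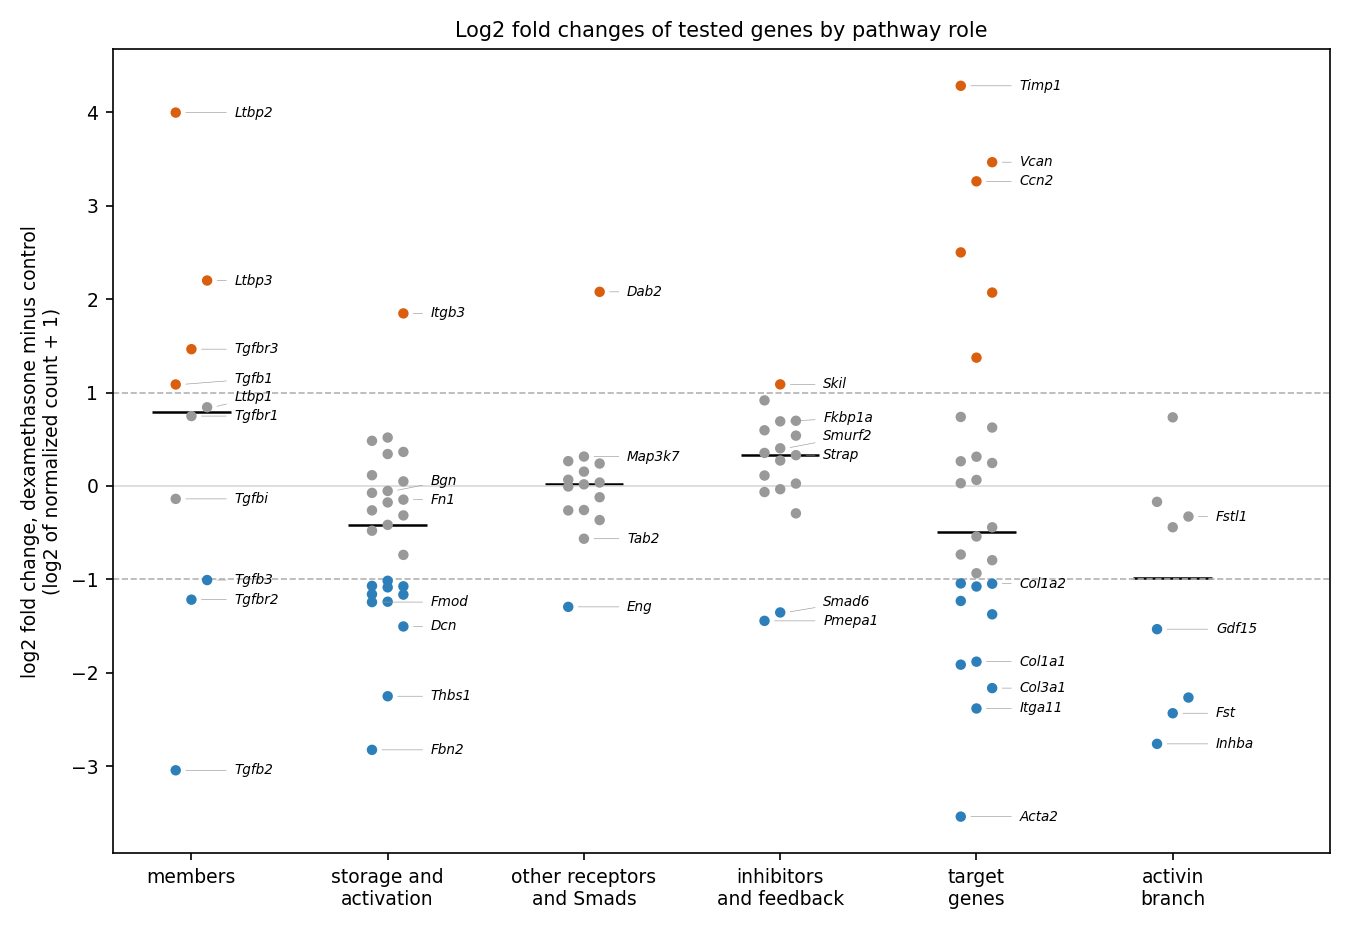
Log2 fold change (dexamethasone minus control) of each tested gene, by role in the pathway, with differentially expressed genes in orange (higher) and blue (lower), others in grey, the median as a black line and the cut-offs dashed. Members spread from -3.05 for Tgfb2 to 3.997 for Ltbp2, and the genes of storage and activation lie mostly below 0.

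Other receptors and Smad transducers showed no common direction. Of 17 genes 15 were tested, with 5 higher and 6 lower at the adjusted p-value (37.2% and 35.2% of all tested genes, together 72.5%). These counts are near those shares and say nothing particular of this list. They were 2 and 9 after quantile normalization and 4 and 8 at the same total. In each direction 1 gene was differentially expressed, together 13.3% against 22.3% of all tested genes. Their median log2 fold change was 0.02, and quantile normalization gave -0.17, scaling to the same total -0.10 and edgeR -0.0015, so it has no settled sign. Dab2, an adaptor that links TGF-beta receptors to Smads, rose from 5583 ± 133 to 23570 ± 713 (SD, n = 3 per group) normalized counts, at a log2 fold change of 2.08 and a limma adjusted p of 9.28e-25. Endoglin (Eng), a co-receptor known from endothelial cells, fell from 278 ± 26.5 to 113 ± 13.5 (SD, n = 3 per group), at a log2 fold change of -1.30 and a limma adjusted p of 7.72e-10. The kinase gene Map3k7 and its partner Tab2 had log2 fold changes of 0.31 and -0.57, both past the test and under the cut-off. The Smads were named after their values were seen. Smad2 had 7209 ± 28.8 and 7391 ± 32.5 (SD, n = 3 per group) normalized counts and did not pass (log2 fold change 0.04, limma adjusted p = 0.347), whereas Smad3 fell by 0.37 on the log2 scale (limma adjusted p = 1.56e-08) and Smad4 rose by 0.26 (limma adjusted p = 5.3e-07).

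Inhibitors and feedback genes were more often higher than lower at the adjusted p-value, by a margin that depends on the scaling. Of 18 genes 17 were tested, with 11 higher and 3 lower (37.2% and 35.2% of all tested genes), against 9 and 6 after quantile normalization and 10 and 6 at the same total, and 1 was differentially expressed upward and 2 downward, together 17.6% against 22.3% of all tested genes. Their median log2 fold change was 0.33, and 0.14 after quantile normalization. Skil, a repressor of Smad activity, rose from 3769 ± 163 to 8005 ± 84.6 (SD, n = 3 per group) normalized counts, at a limma adjusted p of 2.04e-18 and a log2 fold change of 1.09, which was 0.90 after quantile normalization and 0.97 at the same total. Pmepa1, an inhibitor that is itself induced by TGF-beta, fell from 4695 ± 187 to 1725 ± 103 (SD, n = 3 per group), at a log2 fold change of -1.45 and a limma adjusted p of 3.09e-19. The inhibitory Smad6 fell from 3743 ± 60.3 to 1464 ± 72.1 (SD, n = 3 per group), at a log2 fold change of -1.36 and a limma adjusted p of 4.87e-19. Fkbp1a, whose product keeps the type I receptor inactive, rose by 0.69, the ubiquitin ligase gene Smurf2 by 0.40 and Strap by 0.33 on the log2 scale, all under the cut-off. Smad7, named after its value was seen, rose by 0.35 (limma adjusted p = 1.27e-06).

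Genes known as targets of TGF-beta did not move as a block. Of 30 listed, 29 were in the table and 28 tested, with 10 higher and 14 lower at the adjusted p-value (37.2% and 35.2% of all tested genes) and 6 differentially expressed upward and 10 downward (11.7% and 10.6% of all tested genes). Cdkn2b was not analysed here. Their median log2 fold change was -0.49. The metalloprotease inhibitor gene Timp1 rose from 7585 ± 113 to 147960.4 ± 8819 (SD, n = 3 per group) normalized counts, at a log2 fold change of 4.28 and a limma adjusted p of 1.97e-29. Versican (Vcan), a matrix proteoglycan, rose from 4075 ± 58.9 to 45029 ± 919 (SD, n = 3 per group), a log2 fold change of 3.47, and Ccn2, a matricellular protein gene, from 2586 ± 80.5 to 24825 ± 1291 (SD, n = 3 per group), a log2 fold change of 3.26. Smooth muscle actin (Acta2) fell from 144918 ± 3876 to 12449 ± 493 (SD, n = 3 per group), at a log2 fold change of -3.54 and a limma adjusted p of 3.8e-28. The collagen-binding integrin gene Itga11 fell by 2.38 and Col3a1 by 2.17 on the log2 scale. Type I collagen genes also fell, by 1.88 for Col1a1 and by 1.05 for Col1a2, and Col1a2 had -0.995 after quantile normalization.

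The activin branch, which shares Smad2 and Smad3 with TGF-beta, was mainly lower. Of 11 listed genes 9 were in the table and 8 tested, with 1 higher and 6 lower at the adjusted p-value (37.2% and 35.2% of all tested genes) and 4 differentially expressed, all downward (10.6% of all tested genes). The median log2 fold change was -0.99, and -0.44 both without the filter and with a mean of at least 100. Mstn and Tdgf1 were not analysed here. Inhba, the activin A subunit gene, fell from 38799 ± 465 to 5721 ± 162 (SD, n = 3 per group) normalized counts, at a log2 fold change of -2.76 and a limma adjusted p of 3.52e-27. Its antagonist follistatin (Fst) fell from 13338 ± 477 to 2468 ± 121 (SD, n = 3 per group), at a log2 fold change of -2.43 and a limma adjusted p of 4.62e-25. Gdf15, a distant member of the superfamily, fell by 1.53 and Fstl1 by 0.33 on the log2 scale. Fstl3, the gene that was higher, rose by 0.73 and Inhbb, a further activin subunit gene, fell by 2.27 on the log2 scale, and both were named after their values were seen.

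Markers of other cell types were read as sums of normalized counts over each list, since platelets, macrophages, endothelial cells and others also carry TGF-beta transcripts. Their part in the results above was not tested. In these lists, and in those of proliferation and the glucocorticoid response below, every gene but the most abundant of its list was named after its value was seen. Markers are counted as higher or lower at the limma adjusted p-value, at which 37.2% of all tested genes were higher and 35.2% lower, and these shares are given below as background. Counts near them say nothing particular of a list. Some genes passed the filter on low values only through the group where they were high, so their direction was fixed in advance. Upward these include Fabp4, Atp6v0d2, Mrc1 (means 3.15 and 17.3) and Clec3b (means 9.90 and 21.1), and downward Laptm5, Coro1a and Acta1. Counts that rest on such genes are no support for a direction. Genes of blood cells did not agree. Ptprc, which encodes the pan-leukocyte antigen CD45, had 3, 3 and 2 reads in the controls and 3, 5 and 5 with dexamethasone. The platelet gene Pf4 had 3, 4 and 3 reads in the controls and 2, 0 and 0 with dexamethasone, where a count of 0 allows up to 3 reads by counting error alone. Of 8 platelet and megakaryocyte markers 2 were tested and 1, Gp1ba, was lower (background 35.2%). Their sum was 735, 667 and 668 across the controls and 573, 534 and 510.5 across the dexamethasone libraries, most of it Itga2b with means of 409 and 438. Of 8 pan-hematopoietic markers 6 were tested, 3 higher and 2 lower (background 37.2% and 35.2%), with sums of 6712, 6967 and 6870.2 in the controls and 8191, 8112 and 8614 with dexamethasone. Arhgdib made up most of that sum, with means of 6720 and 7482, while Cd53 (means 15.7 and 283) and Itgb2 (means 54.6 and 503) were differentially expressed upward and Laptm5 and Coro1a downward. Macrophage markers had sums of 1486, 1474 and 1468 in the controls and 1624, 1477 and 1669 with dexamethasone, with 5 of 10 tested, 3 higher and 2 lower (background 37.2% and 35.2%). Lyz2 led that list in the controls and fell (means 996 and 351), whereas Cd14 (means 257 and 597) and Cd68 (means 173 and 596) rose and were above it with dexamethasone. The osteoclast list, led by Ctsk (means 13146 and 8353), had sums of 12879, 13492 and 13118 in the controls and 8627, 8219 and 8435 with dexamethasone, and 2 of 7 genes were tested, 1 higher and 1 lower (background 37.2% and 35.2%). Ctsk carried that fall. Acp5, a defining osteoclast gene that was not tested, had 0 normalized counts in every control library and 6.68, 28.3 and 19.8 with dexamethasone, and Atp6v0d2, the gene that was higher, had means of 5.14 and 33.0.

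Among vascular and mesenchymal markers, the endothelial list had sums of 2675, 2791 and 2781 across the controls and 4146, 3518 and 3785 across the dexamethasone libraries. Of its 12 genes 7 were tested, 4 were higher and 1 lower (background 37.2% and 35.2%), with 2 and 1 at the same total, and Vwf led with means of 1825 and 3097. Vwf carried the rise of the sum. The gene that was lower, Ptprb (means 518 and 217), was differentially expressed downward, and Cdh5 had at most 2 reads in any library. The smooth muscle and pericyte list, led by Acta2 in the controls and by Pdgfrb with dexamethasone (mean 21513, not passed), had sums of 172966, 182399 and 179274 in the controls and 47918, 43904 and 45853 with dexamethasone, and of its 9 tested genes 2 were higher and 4 lower (background 37.2% and 35.2%). Acta2 (means 144918 and 12449) carried the fall of this sum. Fibroblast and tendon markers, led by Cd34 (means 4128 and 8503), had sums of 8474, 9159 and 9063 in the controls and 18289, 17106 and 17838 with dexamethasone, with 4 of 6 tested genes higher and 1 lower (background 37.2% and 35.2%). The gene that was lower, Scx (means 1206 and 151), was differentially expressed downward. Chondrocyte markers had sums of 6263, 6723 and 6715 in the controls and 25064, 22497 and 22214 with dexamethasone. That list was led by Sox9 (means 4609 and 17406) and Col2a1 (means 1517 and 5687), with 2 of 3 tested genes higher and 1, Hapln1 (means 406 and 152), lower (background 37.2% and 35.2%), and 7 of its 10 genes, Acan among them, had a mean under 10. Osteocyte markers, led by Pdpn (means 8165 and 13074), had sums of 8202, 8740.01 and 8209 in the controls and 19572, 18274 and 18587 with dexamethasone, with 2 of 4 tested genes higher and 1 lower (background 37.2% and 35.2%). The larger part of that rise was Dmp1 (means 38.5 and 5639), while Phospho1 fell and Mepe did not pass. The adipocyte sum went from 31.2, 34.2 and 41.3 to 1459, 1451 and 1562 through Fabp4 (means 2.16 and 1448), while Adipoq stayed under a mean of 10. Of 8 adipocyte markers 2 were tested, 1 higher and 0 lower (background 37.2% and 35.2%), and Pparg (means 21.8 and 21.6) did not pass. Skeletal muscle markers, led by Actn3 (means 113 and 141), had sums of 173, 187 and 207 in the controls and 226, 166 and 226 with dexamethasone, with 0 of 4 tested genes higher and 1 lower (background 37.2% and 35.2%). Osteoblast markers summed to 1036253, 1086657 and 1106731 in the controls and 1586999.5, 1514350.1 and 1562179.7 with dexamethasone, the latter mostly Spp1 with a mean of 1279674.

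Lists that mark proliferation and the response to glucocorticoids moved strongly with the treatment, and their part in the changes of the 10 members was not tested either. All 12 proliferation genes were differentially expressed upward, against 11.7% of all tested genes, with sums of 42887, 43723 and 45987 in the controls and 280313, 272949 and 265333 with dexamethasone, led by Mki67 (means 11639 and 77747). Of 12 glucocorticoid-response genes 11 were tested. All 11 rose at the adjusted p-value and 9 were differentially expressed, against 37.2% and 11.7% of all tested genes. Zbtb16 is among these genes only through its dexamethasone libraries (means 0 and 42.8), so its direction was fixed by the filter. Their sums were 37596, 39575 and 37376 in the controls and 223099, 209969 and 212102 with dexamethasone, led by Mt1 in the controls (mean 10965) and by the kinase gene Sgk1 with dexamethasone (means 3596 and 68542).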

How the data were processed

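RNA was sequenced from bone cells of 3 control and 3 dexamethasone samples with a stranded mRNA kit. The authors aligned and counted reads with STAR 2.7.10a and normalized them with DESeq2 1.36.0, and the submitters' processing notes name GRCm39. Each deposited value is a signal, the number of reads of a gene over the size factor of its library, and is called a normalized count. The annotation release and the strand setting are not given in the sources used here.

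Whole reads were recovered for 100% of the values (tolerance 1e-06), and 0 columns were left out. GENCODE M21 gave symbols (28087 of 29616 identifiers), transcript lengths and overlaps only, so no gene coordinates are printed from it, and promoters came from RefSeq (GRCm38.p6). Protein sequences were not analysed here. A few genes, among them an overlap partner of a member, are not reported here. The precision of low values is set by depth, and a count of 0 is compatible with 3 reads at most, a limit that covers counting error only.

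Genes with a mean of at least 10 were compared as log2 of the normalized count plus 1 with limma 3.58.1 (trend) in R 4.3.3, with Benjamini-Hochberg adjustment over all 17442 genes, and called differentially expressed at an adjusted p-value of 0.05 and a log2 fold change of 1, after the study's cut-offs. An exact two-sided permutation test of 3 against 3 libraries cannot go below 0.1 and was not used. The members and lists were chosen with earlier results of these data known. Named genes were the members, up to 3 genes per pathway list with the highest mean, up to 3 with the largest differentially expressed increase and decrease, the most abundant gene of each marker list and Bglap. Others were chosen after their values were seen, among them every further marker gene.

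Alternatives changed the pseudocount, the filter on low values, the scaling and the trend in limma, omitted 1 library at a time, took the replicate number as a block, ran edgeR 4.0.16 or DESeq2 1.42.0 on recovered reads, or used the union of exons as length. The fits were also run on simulated counts with 193 of 17272 genes changed, of which limma recovered 98.4%. That simulation used the same dispersion for all genes, and changed few of them, each by more than the fold cut-off. It therefore does not cover changes near the cut-off or the uneven spread of these libraries.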

Additional observations from a re-analysis of the deposited data

How the results depend on the processing

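Over 17 alternatives per fit, no member changed direction. The calls of Tgfb2, Tgfbr1, Tgfbr2, Tgfbr3, Ltbp1, Ltbp2 and Ltbp3 were the same in each. The size of the p-values depends on the trend. In limma without it, adjusted p-values of the members that passed lay between 2.49e-06 (Ltbp3) and 8.98e-05 (Ltbp2). All these p-values measure spread between libraries, which may differ from that between mice. Tgfb1 (log2 fold change 1.09) was at 0.97 with libraries scaled to the same total and at 0.90 after quantile normalization, under the cut-off. The median over all genes was -0.113 and -0.0746 in these fits, against 0.000712 in the main fit. Measured from that median, Tgfb1 was at 1.0846 and 0.9707, against 1.0853 in the main fit. Tgfb3 (-1.01) ranged from -1.04 to -0.98 with 1 library omitted, under the cut-off without control replicate 2 or dexamethasone replicate 2. The cause was not tested. Tgfbi, which was not called, passed at the adjusted p-value alone in several of them.

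Without the requirement on the fold change, by construction, the counts rose to 12645 (6497 higher, 6148 lower) for all genes, 21 for storage and activation, 11 for the other receptors and Smad transducers, 14 for inhibitors and feedback and 7 for the activin branch. With a mean of at least 100, fewer genes were tested and 2170 (1350 higher, 820 lower) were called, against 3894. On the recovered reads edgeR called 3944 and DESeq2 3870. Of the calls 52.3% were higher, and 45.1% with equal totals and 62.2% under the stricter filter.

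It was not settled if libraries are paired by their replicate numbers. Deviations from the group means of libraries with the same number correlated at -0.0999, -0.105 and -0.0199. No library correlated best with its own number. With 3 libraries per group such deviations cannot exclude a pairing, and littermates served as controls. A replicate block gave 3897 calls, 2035 higher and 1862 lower, and no member's call changed.

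Of 43 genes outside the members that were named by rule, 5 changed a call of differential expression or a sign under some alternative, and this was not examined for the genes named after their values were seen. Arhgdib (0.15) went to -0.0569 after quantile normalization and Itga2b (0.10) to -0.0119 at the same total, and Cd34, Col1a2 and Skil fell under the cut-off. Actn3, Arhgdib, Bgn and Fn1 passed at the adjusted p-value alone in some alternatives and not in others. The cause was not tested. With the union of exons 14 shares moved by more than the spread between replicates. Depth limits Ltbp2 in the controls and the markers with few reads.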
